A study of Homo sapiens with 6 samples.

Results

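The 48 genes described here encode the parts of Wnt signalling, namely ligands, the secretion machinery, Frizzled and LRP receptors, R-spondin receptors, antagonists, the β-catenin destruction complex, TCF factors and feedback inhibitors. They were picked by gene symbol, and all 48 had a row among the 19830 genes of the authors' deposited table. RNA came from PANC-1, a cell line established from a ductal carcinoma of the human pancreas, 48 hours after transfection with 25 nM of SOX9 siRNA (2 libraries) or 25 nM of control siRNA (2 libraries), and the series' 2 samples of SOX9 chromatin immunoprecipitation were left out. Per the labels' protocols, transfected cells were pooled before harvest, and separate cultures behind libraries of 1 group are not named there. A p-value here thus reflects how far the libraries of a group differ, a spread that may be technical. SOX9 is an HMG-box transcription factor that marks the progenitors and the duct of the pancreas.

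In canonical Wnt signalling a lipid-modified ligand joins a Frizzled receptor and LRP5 or LRP6 on the cell surface. Without ligand, a complex built on AXIN and APC has β-catenin phosphorylated and degraded. With ligand, Dishevelled proteins hold that complex at the membrane, β-catenin enters the nucleus and works with TCF and LEF factors. These factors and SOX9 share the HMG box as their DNA-binding domain. Several target genes, AXIN2 among them, feed back to dampen the pathway, and in pancreatic cancer lines the reliance on Wnt ligands is known to differ with the state of the ubiquitin ligase RNF43.

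SOX9 siRNA was accompanied by a rise of 1 Wnt gene, AXIN2, and by a fall of 0 at the adjusted threshold of 0.05. By the tests of the authors' deposited table, 44 of the 48 genes were tested, 43 of these were not called, and 5 had an unadjusted p under 0.05. Over all 14063 genes tested, 0.868% rose and 0.939% fell at the adjusted threshold, and 11.1% had an unadjusted p under 0.05. The median log2 fold change of the tested Wnt genes was 0.02, beside -0.02 over all genes tested, with 23 values above 0 and 21 below. The share of Wnt genes with an unadjusted p under 0.05 was 11.4%, near that of all genes.

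The plot of fold changes by role shows that the estimates ran from -0.61 for DKK1 to 2.17 for AXIN2 on the log2 scale.

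**Figure D1:**
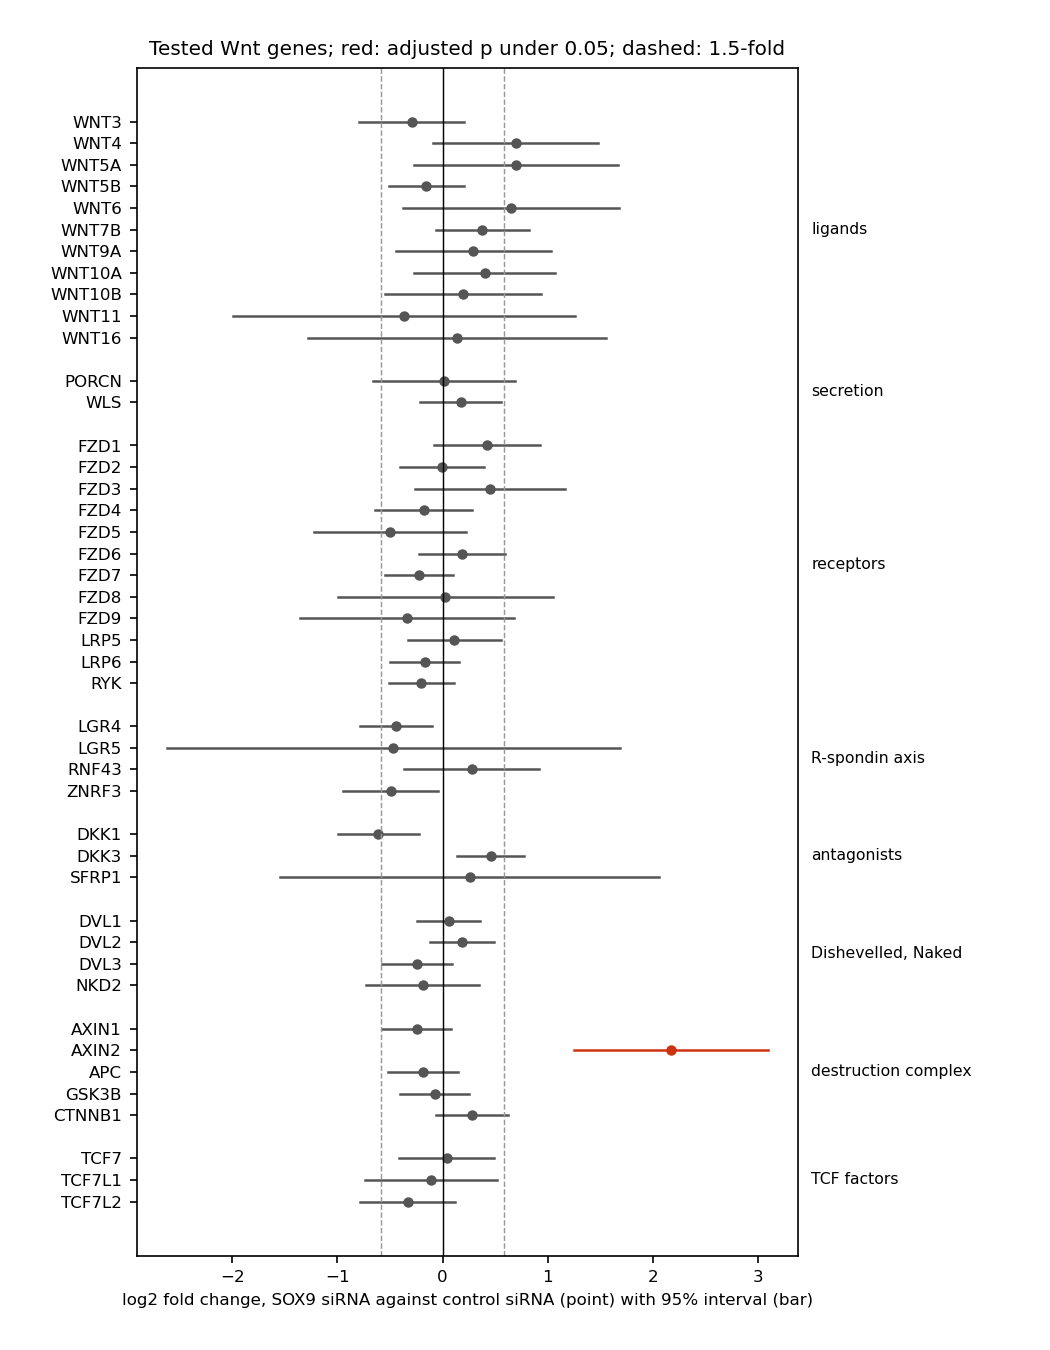
Log2 fold change of each tested Wnt gene, SOX9 siRNA against control siRNA, from the authors' deposited table (points), with 95% Wald intervals (bars), ordered by role; dashed lines mark a 1.5-fold change and red marks an adjusted p under 0.05. AXIN2 at 2.17 is the 1 gene in red, and the intervals of DKK1, DKK3, LGR4 and ZNRF3 also leave out 0.

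Reads per library are not listed in that table but could be worked out from its digits for all 44 tested Wnt genes, as described under the processing. They are given here as normalized counts, that is reads divided by the library's size factor. Nothing links them to the replicate numbers of the labels, so the libraries of a group are called a and b, with a the one with the larger size factor. Over the 13906 tested genes so resolved, the 4 libraries held from 33326739 to 44448688 reads, and these genes made up 78.8% of the summed mean counts. The table's headers do not name the numerator, and every direction here follows from reading SOX9, the siRNA target, as lower after SOX9 siRNA. SOX9 had normalized counts of 3019 and 3350 in control libraries a and b, and 1346 and 2217 in SOX9 siRNA libraries a and b. On that reading SOX9 stood at 55.9% of control and its adjusted p was 0.0643 by the authors' deposited table, so SOX9 itself was not called and is no check of the labels. Of 6 duct and epithelial markers, KRT8, KRT18, KRT19 and CDH1 had mean normalized counts of 203350, 130452, 99583 and 1426 in the authors' deposited table, and KRT7 and MUC1 had 354 and 96.3. Of the 13 markers of leukocytes, endothelium, fibroblasts, islet and acinar cells with a row, 10 had means of 4.37 or less in the authors' deposited table, and COL3A1, CD14 and PDGFRB had 322, 52.2 and 32.0.

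The libraries fell into pairs that cut across the siRNA groups. Over 13906 tested genes, the difference between library b and library a in the control group and the same difference in the SOX9 siRNA group had a Pearson correlation of 0.63 across genes, on the scale log2(normalized count + 1). Genes are not independent replicates, and the value is a description of these 4 libraries. No label names what each pair shares, so values within pair a and within pair b are given beside each main result. The change was larger in pair a than in pair b for 77.4% of all tested genes and for 34 of the 44 Wnt genes. SOX9 stood at 44.6% of control within pair a and at 66.2% within pair b.

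AXIN2 was the Wnt gene that rose. In bulk RNA a change in the make-up of the cells and a change of RNA per cell cannot be told apart. AXIN2 is a scaffold of the destruction complex and a direct target of β-catenin and TCF, widely read as a feedback inhibitor of the pathway. Its normalized counts were 25.6 and 32.5 in control libraries a and b (29 and 32 reads), and 158 and 104 in SOX9 siRNA libraries a and b (157 and 94 reads). The groups did not overlap, and the lower SOX9 siRNA library was still well above the higher control. By the authors' deposited table, AXIN2 rose 4.51-fold (95% interval 2.38 to 8.56). Its adjusted p there was 0.00159 in the authors' deposited table, and it ranked 34 by p among all genes tested. The fold was 6.16 within pair a and 3.19 within pair b. In a Wald refit on the reads with the deposited dispersions, AXIN2 was not called without control a (log2 fold change 2.01, adjusted p 0.237) or without SOX9 siRNA a (1.84, adjusted p 0.306). These refits called 11 and 8 genes in all, beside 253 with all libraries. Over the alternatives run the adjusted p ranged from 0.00142 to 0.415. AXIN2 had few reads in every library, so a filter at a mean normalized count of 100 removes it from the test.

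The other genes of the destruction complex, grouped here with its substrate β-catenin, were not called. AXIN1, the constitutive paralog of AXIN2, had normalized counts of 4831 and 4205 in the controls and 3828 and 3799 after SOX9 siRNA. AXIN1 thus lay lower in both SOX9 siRNA libraries, where the authors' deposited table put it at 84.4% of control (95% interval 67.2% to 106%, adjusted p 0.657). APC, the tumour suppressor that scaffolds the complex with AXIN, had 3425 and 2971 in the controls against 2825 and 2807, and GSK3B, a kinase that phosphorylates β-catenin, had 1851 and 1885 against 1821 and 1722. For both genes the SOX9 siRNA libraries lay below the controls by a margin that was small beside the intervals, which ran from 69.8% to 111% of control for APC and from 75.7% to 119% for GSK3B in the authors' deposited table. CTNNB1, which encodes β-catenin itself, had 12488 and 15245 in the controls and 16550 and 17141 after SOX9 siRNA. Its SOX9 siRNA libraries were the higher, and the authors' deposited table gave CTNNB1 a log2 fold change of 0.28 with a standard error of 0.18 (adjusted p 0.596). AXIN2 and these 4 genes thus held 1 call, and all 5 had groups that did not overlap, 2 higher and 3 lower. That ordering is common in these libraries: both SOX9 siRNA libraries lay above both controls for 21.7% of all tested genes and below them for 24.5%.

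The plot of normalized counts per library shows AXIN2 beside the other Wnt genes with an unadjusted p under 0.05, SOX9 and the called genes of the wider pathway.

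**Figure D2:**
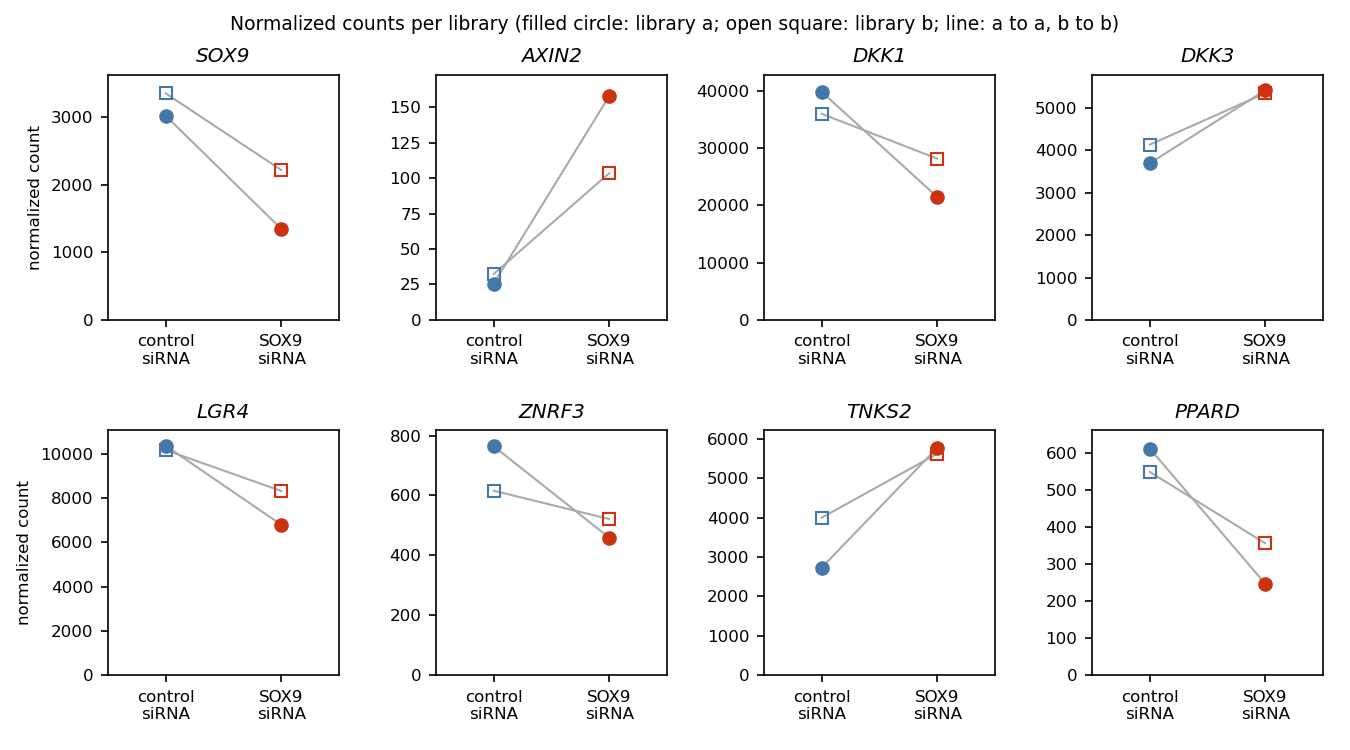
Normalized count (linear axis from 0) of SOX9, AXIN2, DKK1, DKK3, LGR4, ZNRF3, TNKS2 and PPARD in each library; filled circles are libraries a, open squares libraries b, and grey lines join a to a and b to b. In each of the 8 panels the groups do not overlap and the line of pair a is the steeper. AXIN2 goes from 25.6 to 158 in pair a and from 32.5 to 104 in pair b. Apart from SOX9, the siRNA target, these genes were picked by small p, which favours groups that do not overlap. Of all tested genes 46.2% did not overlap, and the log2 change was larger in pair a for 249 of 253 called genes.

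Of the 3 genes grouped here as secreted antagonists, DKK1 had lower and DKK3 higher values without passing the adjusted threshold. Whether each of them inhibits the pathway in these cells was not tested. DKK1, which binds LRP5 and LRP6 and is itself a Wnt target gene, had normalized counts of 39840 and 36005 in the controls and 21485 and 28178 after SOX9 siRNA. The SOX9 siRNA libraries lay below the controls, at 53.9% of control within pair a and 78.3% within pair b. By the authors' deposited table, DKK1 stood at 65.5% of control (95% interval 50.2% to 85.4%, adjusted p 0.0781). DKK3, a secreted relative of DKK1, had 3696 and 4133 in the controls and 5417 and 5349 after SOX9 siRNA. Its groups did not overlap, and the authors' deposited table put DKK3 at 1.38 times control (95% interval 1.10 to 1.71, adjusted p 0.133). SFRP1, a soluble Wnt-binding protein, had 1128 and 3052 in the controls and 1386 and 3612 after SOX9 siRNA. SFRP1 thus differed far more between libraries a and b than between siRNAs, and its log2 fold change of 0.26 had a standard error of 0.92 in the authors' deposited table.

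The R-spondin axis sets how much Frizzled stays on the cell surface. LGR4, a receptor for R-spondins, had normalized counts of 10367 and 10170 in the controls and 6792 and 8320 after SOX9 siRNA. The SOX9 siRNA libraries were the lower, at 65.5% of control within pair a and 81.8% within pair b, and the authors' deposited table put LGR4 at 73.6% of control (95% interval 57.9% to 93.6%, adjusted p 0.228). ZNRF3, a ubiquitin ligase that removes Frizzled receptors and is opposed by R-spondin with LGR receptors, had 764 and 616 in the controls and 459 and 521 after SOX9 siRNA. ZNRF3 was lower in both SOX9 siRNA libraries, and by the authors' deposited table stood at 71.0% of control (95% interval 51.9% to 97.0%, adjusted p 0.361). Its paralog RNF43 went the other way by point estimate, with 122 and 149 in the controls and 151 and 177 after SOX9 siRNA, where the authors' deposited table lists 0.870 as the adjusted p. LGR5, a stem cell marker of the intestine, had 56.6 and 12.2 in the controls and 45.3 and 4.41 after SOX9 siRNA, so libraries a were high and libraries b low under either siRNA.

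DKK1 and LGR4 are the Wnt genes with the smallest p among those with lower values, and their RefSeq sequences just upstream of the start are shown to let a reader see which of them carries the core letters of a TCF site. The core searched was CTTTG on either strand, so that its reverse complement CAAAG also counts, set in capitals in the 250 bases before the start on build GRCh38.p14, at chr10:52314031-52314280 on the + strand for DKK1 and chr11:27472791-27473040 on the - strand for LGR4.
DKK1: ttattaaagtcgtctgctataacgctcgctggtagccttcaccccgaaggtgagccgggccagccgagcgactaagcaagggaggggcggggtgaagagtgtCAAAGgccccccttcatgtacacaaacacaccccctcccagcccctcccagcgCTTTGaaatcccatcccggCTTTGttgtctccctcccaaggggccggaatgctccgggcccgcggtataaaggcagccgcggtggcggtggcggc
LGR4: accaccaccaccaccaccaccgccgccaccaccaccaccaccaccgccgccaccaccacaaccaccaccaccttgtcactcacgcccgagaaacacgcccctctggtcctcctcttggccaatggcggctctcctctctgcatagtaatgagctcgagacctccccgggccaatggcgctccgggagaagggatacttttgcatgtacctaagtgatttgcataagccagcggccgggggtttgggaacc
The DKK1 stretch held 3 matches and the LGR4 stretch 0. A match is common, with 42.1% of 35116 upstream stretches of this length holding at least 1. The share of stretches with 3 matches was not counted, so the number in DKK1 has no background here. Of 43 such stretches for 34 of the Wnt genes, 10 from 8 genes held the core, and the letters ACAATG on either strand, found in many SOX sites, were in 9.29% of all stretches and, among the Wnt genes, in TCF7L2. The motifs were counted separately. ACAATG was the only form searched for SOX sites, so a stretch without it may still hold another form. These are letter matches and not binding sites, and no binding data were used here.

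Among the ligands none was called. Of 13 Wnt ligand genes 11 were tested, 8 with a positive and 3 with a negative log2 fold change, and their median was 0.29. The lowest adjusted p was 0.544, for WNT4, a ligand of kidney and gonad development, which had normalized counts of 59.3 and 76.1 in the controls and 108 and 111 after SOX9 siRNA. WNT7B, a ligand of lung and pancreas, had 703 and 951 in the controls and 1032 and 1117 after SOX9 siRNA. For these 2 genes the SOX9 siRNA libraries were above the controls, with log2 fold changes of 0.70 (standard error 0.40) for WNT4 and 0.38 (0.23) for WNT7B in the authors' deposited table.

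For 5 other ligands the groups overlapped, while within each pair the SOX9 siRNA library was above its control. Their adjusted p-values ran from 0.676 (WNT5A) to 0.940 (WNT10B) in the authors' deposited table. The share of all tested genes with such agreement of the pairs is not given here, so the count is a description only. WNT5A, the main ligand of planar polarity signalling, had 46.0 and 78.1 in the controls and 76.5 and 125 after SOX9 siRNA. WNT5A was 1.66-fold higher within pair a and 1.59-fold within pair b, yet the groups overlapped because libraries b were higher than libraries a. WNT6 had 147 and 74.1 in the controls and 246 and 101 after SOX9 siRNA, and WNT10A, a ligand of skin and teeth, had 478 and 297 against 633 and 390. For WNT6 and WNT10A libraries a were the higher in both groups, and within pairs the SOX9 siRNA library was above its control by 1.67-fold and 1.37-fold for WNT6 and by 1.33-fold and 1.31-fold for WNT10A. WNT9A had 227 and 420 in the controls and 303 and 489 after SOX9 siRNA, and WNT10B had 84.9 and 109 against 103 and 119. The SOX9 siRNA library was above its control by 1.33-fold and 1.16-fold for WNT9A and by 1.21-fold and 1.10-fold for WNT10B, in pairs a and b.

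Of the remaining ligands, WNT3 and WNT5B lay below control and WNT11 and WNT16 overlapped. WNT3 had 379 and 311 in the controls and 281 and 282 after SOX9 siRNA, and WNT5B had 1305 and 1443 against 1181 and 1288. These SOX9 siRNA libraries were below the controls, with adjusted p-values of 0.771 for WNT3 and 0.870 for WNT5B in the authors' deposited table. WNT11 had 16.8 and 38.5 in the controls and 13.1 and 29.8 after SOX9 siRNA, and WNT16 had 41.6 and 92.3 against 28.2 and 119. Both were higher in libraries b than in libraries a under either siRNA, and WNT16 stood at 67.8% of control within pair a and 129% within pair b. WNT3A and WNT7A were not tested: WNT3A had 2 reads, both in SOX9 siRNA library a, and WNT7A had 1 read in each control library. No fold is given for these 2 genes.

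Genes that secrete Wnt ligands did not differ beyond their spread. PORCN, the enzyme that attaches the lipid, had normalized counts of 297 and 464 in the controls and 291 and 476 after SOX9 siRNA, so the pairs matched closely while libraries a and b did not. WLS, which carries the modified ligand to the surface, had 1164 and 1283 in the controls and 1250 and 1507 after SOX9 siRNA. The interval of WLS in the authors' deposited table ran from 86.1% to 147% of control.

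All 12 receptor genes were tested, and the authors' deposited table called 0 of them, with 0 at an unadjusted p under 0.05 and the lowest adjusted p at 0.586 for FZD1. Frizzled proteins bind the ligand, LRP5 and LRP6 are the co-receptors of the β-catenin branch, and RYK is a Wnt receptor with an inactive kinase domain. FZD1 had 214 and 206 in the controls and 277 and 286 after SOX9 siRNA, and FZD3, known from axon guidance, had 89.3 and 84.2 against 112 and 126. In both genes the SOX9 siRNA libraries were the higher. FZD7 had 2263 and 2155 in the controls and 1939 and 1854 after SOX9 siRNA, LRP6 2447 and 2213 against 2032 and 2108, and RYK 7881 and 7674 against 6477 and 7062. In these 3 genes the SOX9 siRNA libraries were the lower.

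The other Frizzled genes and LRP5 had groups that overlapped. FZD5, the Frizzled that RNF43-mutant pancreatic cancer lines are known to depend on, had 1875 and 872 in the controls and 1191 and 754 after SOX9 siRNA. Libraries a were the higher in both groups, and FZD5 stood at 63.5% of control within pair a and 86.4% within pair b. FZD8 had 59.3 and 131 in the controls against 72.5 and 121, and FZD9 had 85.8 and 210 against 83.5 and 150, with libraries b the higher in each. FZD6 had 3204 and 2611 against 3698 and 2922. FZD2 had 1366 and 1413 against 1223 and 1548, FZD4 752 and 565 against 569.5 and 593, and LRP5 11089 and 15509 against 12839 and 15919.

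Dishevelled proteins carry the signal from Frizzled to the destruction complex, and none of their genes was called. DVL1 had 12507 and 13640 in the controls and 13372 and 13848 after SOX9 siRNA, DVL2 had 4319 and 4472 against 4912 and 5094, and DVL3 had 4252 and 3709 against 3438 and 3272. By order of the libraries DVL2 was higher and DVL3 lower after SOX9 siRNA, and DVL1 overlapped. NKD2, a Naked cuticle protein that binds Dishevelled, had 382 and 392 against 279 and 400. Its relative NKD1, an established Wnt target gene, was not tested, with 5 and 1 reads in the controls and 3 and 1 after SOX9 siRNA.

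The TCF factors, the nuclear partners of β-catenin, held no call. TCF7L2, the main TCF of gut epithelium, had normalized counts of 749 and 696 in the controls and 499 and 651 after SOX9 siRNA. Both SOX9 siRNA libraries were below the controls, at 66.6% within pair a and 93.6% within pair b, and the adjusted p of TCF7L2 was 0.670 in the authors' deposited table. TCF7 had 400 and 477 against 451 and 450, and TCF7L1, which often acts as a repressor, had 210 and 154 against 163 and 174. LEF1 was not tested at its low count, with 19 and 18 reads in the controls and 11 and 11 after SOX9 siRNA, or 16.8 and 18.3 against 11.1 and 12.1 as normalized counts. LEF1 was lower in both SOX9 siRNA libraries.

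For 14 of the 44 tested genes the 95% interval in the authors' deposited table lay wholly within a 1.5-fold change in either direction. They were WNT5B, WLS, FZD2, FZD7, LRP5, LRP6, RYK, DVL1, DVL2, DVL3, AXIN1, APC, GSK3B and TCF7. For the other genes that were not called the interval reached beyond a 1.5-fold change, with standard errors of up to 1.10 for LGR5. Among them, the intervals of DKK1, DKK3, LGR4 and ZNRF3 excluded the control level, though none of these genes passed the adjusted threshold. For the rest a change of that size could not be told from none at this number of libraries. In all, 9 of the 44 genes lay higher in both SOX9 siRNA libraries than in both controls, 13 lay lower and 22 overlapped, so that 22 did not overlap, beside 21.7%, 24.5% and, in either direction, 46.2% of all tested genes.

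The plot of each library against the gene's mean shows where the spread of the Wnt genes lay.

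**Figure D3:**
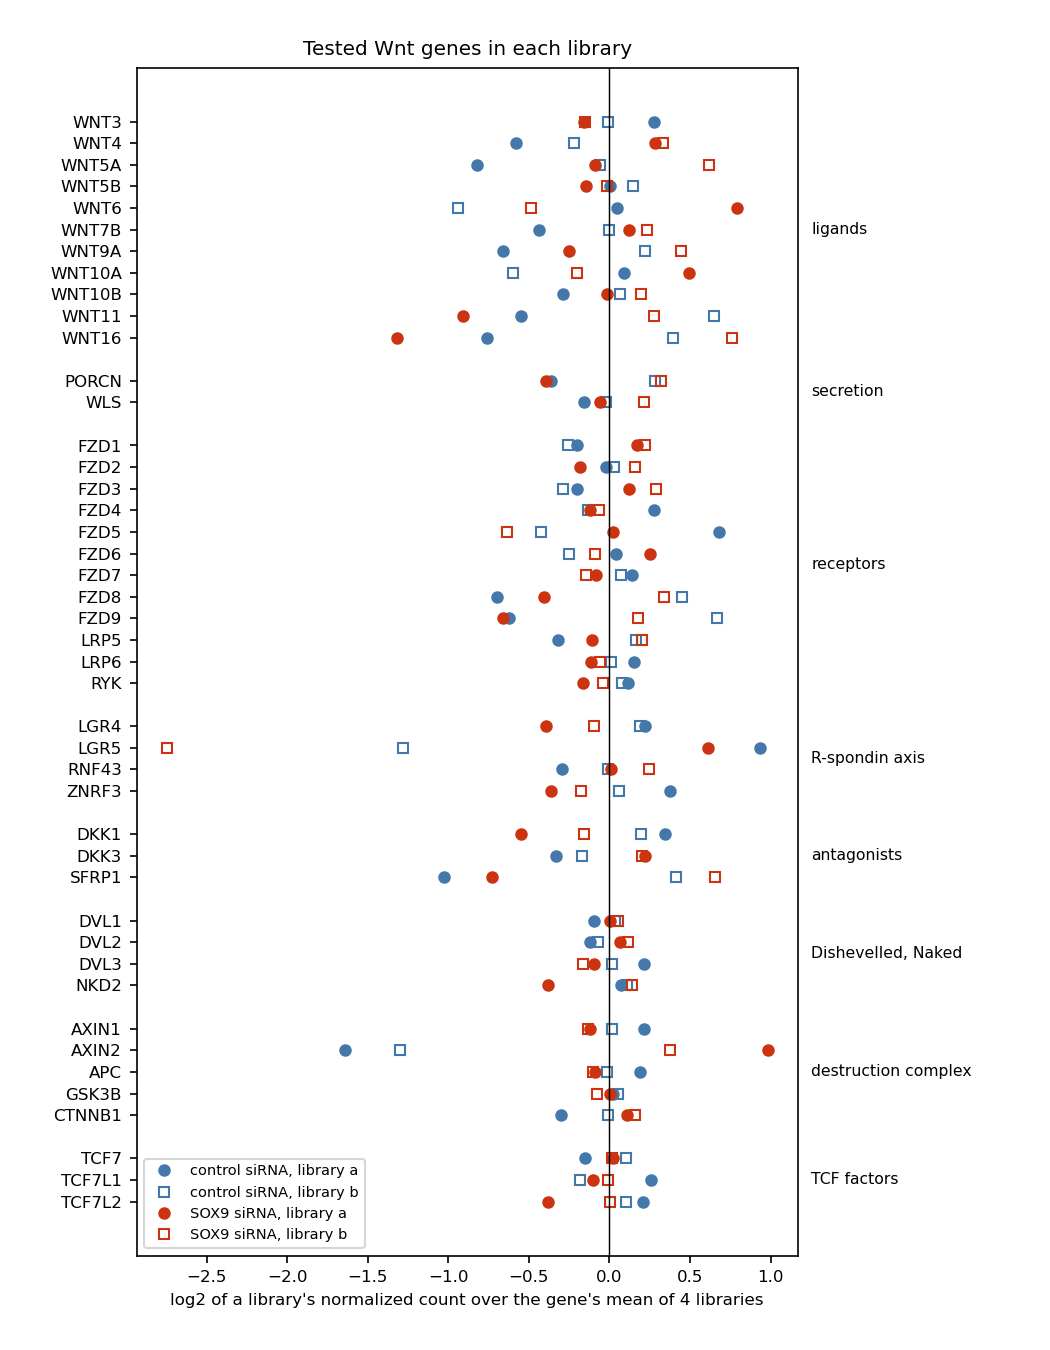
For each tested Wnt gene, log2 of a library's normalized count over the gene's mean of the 4 libraries (horizontal axis), ordered by role; blue is control siRNA, red SOX9 siRNA, filled circles libraries a and open squares libraries b. Colours separate for AXIN2, DKK1, DKK3 and LGR4, among others. Shapes separate for SFRP1, LGR5, WNT11, WNT16, FZD8, FZD9 and PORCN, among others.

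The difference between libraries a and b was larger than that between siRNAs for part of the family. Across the 44 genes the difference of b from a in the controls and in the SOX9 siRNA group had a Pearson correlation of 0.87, given as a description since all points share the same 4 libraries and LGR5 lies far from the rest. The sign was the same in both groups for 29 of 44 genes, or 65.9%, beside 70.2% of all tested genes. For 22 of the 44 genes the mean difference between libraries was larger than the mean difference between siRNAs, beside 53.8% of all tested genes. SFRP1 was 2.71-fold higher in library b than in library a among the controls and 2.61-fold higher after SOX9 siRNA. WNT11 was 2.29-fold and 2.27-fold higher in library b, and PORCN 1.56-fold and 1.64-fold. AXIN2 was among the genes whose sign differed between the groups, with library b at 1.27 times library a in the controls and at 0.656 times after SOX9 siRNA. The control ratio of AXIN2 rests on 29 and 32 reads. DKK1, DKK3, LGR4 and ZNRF3 also differed in sign.

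**Figure D4:**
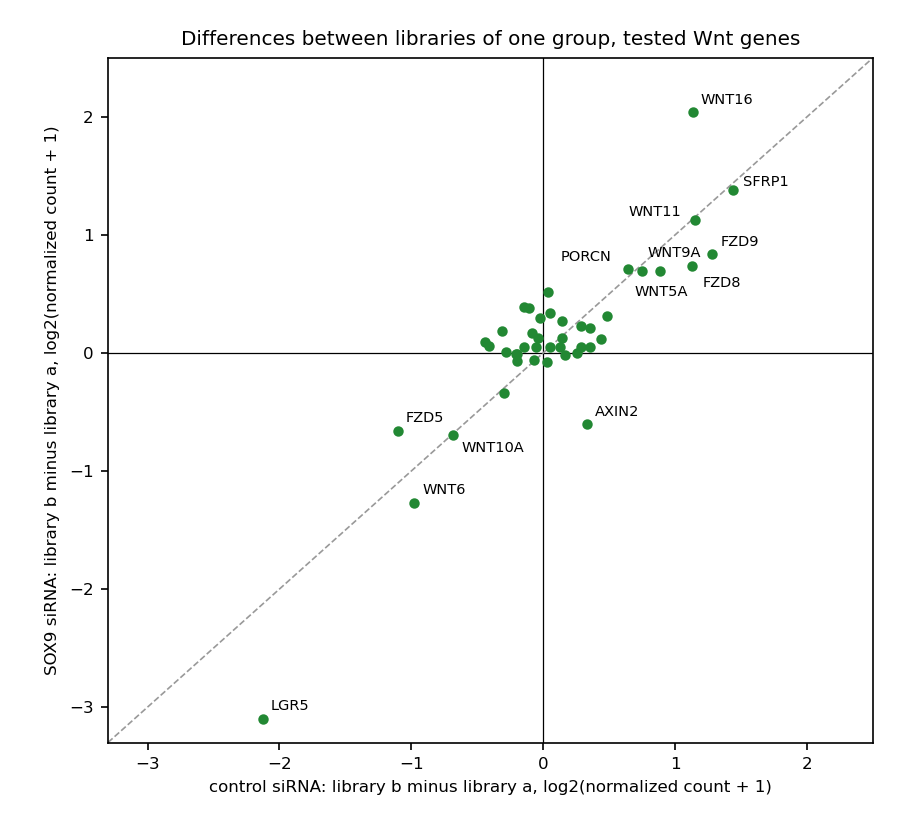
Library b minus library a on the scale log2(normalized count + 1), in the control siRNA group (horizontal) and the SOX9 siRNA group (vertical), 1 point for each of the 44 tested Wnt genes; the dashed line marks equal differences. SFRP1 and WNT11 lie near the line, LGR5 at -2.13 and -3.10 is the farthest from 0, and AXIN2 at 0.33 and -0.60 lies off it.

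Beyond these genes, 140 entries of 7 lists of further Wnt pathway genes were looked up, 121 had a row, 92 were tested, 1 rose and 1 fell, beside 1.81% of all tested genes called in either direction. TNKS2, a tankyrase that marks AXIN proteins for degradation, had normalized counts of 2730 and 3998 in the controls and 5774 and 5622 after SOX9 siRNA. The groups did not overlap, and by the authors' deposited table TNKS2 rose 1.69-fold (95% interval 1.25 to 2.30, adjusted p 0.0429), or 2.11-fold within pair a and 1.41-fold within pair b. PPARD, a nuclear receptor once described as a Wnt target, had 612 and 549 in the controls and 247 and 356 after SOX9 siRNA. By the authors' deposited table, PPARD fell to 51.8% of control (95% interval 35.9% to 74.8%, adjusted p 0.0331), or 40.3% within pair a and 64.8% within pair b. In the Wald refit neither was called without control a or without SOX9 siRNA a, where 11 and 8 of all 13906 genes were called. At an unadjusted p under 0.05 stood 3 and 6 of the 91 genes with reads worked out, beside 546 and 767 of all genes. PPARD was also lost without control b and TNKS2 without SOX9 siRNA b.

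The next genes by p in these lists were not called. FOSL1, an AP-1 subunit, stood at 62.1% of control, TBL1X, a cofactor of β-catenin, at 65.5%, BCL9, which links β-catenin to Pygopus, at 68.3% and MYC at 76.3% in the authors' deposited table. TPBG, a membrane protein that inhibits β-catenin signalling, stood at 142% of control and CBY1, which binds β-catenin and also serves at the base of cilia, at 136% in the authors' deposited table. For these 6 genes the authors' deposited table lists adjusted p-values from 0.0643 (FOSL1) to 0.328 (BCL9). By list, 24 tested genes of the destruction complex and its regulators held 1 rise, and 18 tested target genes held 1 fall. The 23 nuclear cofactors, 15 planar polarity genes, 9 further receptors, 2 secreted antagonists and 1 further ligand tested held 0 calls. In that order, these lists had 3, 1, 1, 1 and 0 genes at an unadjusted p under 0.05. The regulators had 2, both higher (TNKS2 and CBY1). The target genes had 4, all lower: PPARD, FOSL1, MYC and CCND1, the last at 76.4% of control (adjusted p 0.406 in the authors' deposited table). AXIN2, a target gene outside this list, was higher. Over the 18 listed targets, 9 log2 fold changes were negative and 9 positive. In all, 12 of the 92 genes had such a p, beside 11.1% of all genes tested. The median log2 fold change over the 92 genes was 0.04.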

How the data were processed

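RNA was compared between 2 SOX9 siRNA and 2 control siRNA libraries of PANC-1 cells. Per the submitters' processing notes the authors used HISAT2 2.0.5, featureCounts and DESeq2 1.18.1. The notes name hg19 and mm10 as builds without saying what each served for. The strand setting of the counting was not given in the sources. The authors' table holds 1 comparison. As its headers show, each deposited mean is a signal, the counts of a gene scaled by size factor and averaged. Fold changes and standard errors were deposited by the authors on the log2 scale, with the Wald score (deposited too) as their quotient. Raw and adjusted p-values were used as deposited; repeating the Benjamini-Hochberg step on 14063 genes differed by at most 3.2e-15. The call rule was an adjusted p below 0.05 by the authors' DESeq2 test, and intervals are 95%, 1.96 standard errors each way.

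Reads per library were worked out from the digits of the table. The 10 distinct means of 650 genes with 2 reads in all gave the 4 size factors, 0.908 to 1.13. For every other gene, whole reads were searched whose normalized mean equals the deposited mean within a relative 7e-15 and whose negative binomial fit, with the dispersion set by the deposited standard error, equals the deposited fold change within 1e-05 (3e-06 from a mean of 5000). Exactly 1 solution was found for 13906 of 14063 tested genes, or 98.9%, with a median difference in log2 fold change of 2.43e-07. The remaining genes had means above 35000 (119 genes), more than 1 solution (23) or none (15). On 300 simulated rows the search returned the true reads in 300. The reads are thus inferred, and which group is which follows from the sign at SOX9.

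The genes and the lists were chosen with earlier results of these data known. All Wnt genes were named, and of the 7 further lists the called genes and up to 8 with the smallest p. CCND1 was named as well, as a listed target gene with an unadjusted p under 0.05. The alternatives were other thresholds and mean count filters, centring, a wider null, a 1.5-fold bound, limma-voom (limma 3.58.1, R 4.3.3) on the reads with and without library pairs, and a Wald refit of the reads that leaves out each library, with each gene's dispersion taken from the deposited standard error. On simulated data for 14063 genes, without library pairs and with all libraries kept, the refit called 89.0% of 4-fold changes. That share does not apply to the refits that leave out a library. The limma-voom fits, the refit and the values within pairs were added after the data were seen. Upstream sequences are RefSeq's, matched by symbol for 34 of 48 genes. These sequences were used as letters only.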

Additional observations from a re-analysis of the deposited data

How the results depend on the processing

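AXIN2 was called at adjusted p thresholds of 0.1 and 0.01, with no filter, after centring and with a wider null. The count of rises was 0 with a mean count of at least 100, where AXIN2 is not tested, 0 against a 1.5-fold bound and 0 by limma-voom without a block, which called 0 of all 13906 genes, with 6 Wnt genes and 1540 genes at an unadjusted p under 0.05. The count of falls was 1 (DKK1) at a threshold of 0.1. Among further pathway genes, 0 were called at a threshold of 0.01, 0 with a wider null, 0 against the 1.5-fold bound, 0 by limma-voom and 1 without a filter. Leaving out each library gave 0 to 1 rises, 0 to 1 falls (DKK1, without SOX9 siRNA b) and 0 to 2 further genes. The remaining library of a reduced group is then assumed to vary as the deposited dispersion says. The cause of these changes was not tested, other than that fewer libraries or genes enter.

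The median log2 fold change changed sign, at -0.0044 with a mean count of at least 100 and -0.027 within library pair a. The labels number the replicates, but nothing links those numbers to the libraries as worked out, so a block by the labelled number was not run. With the library pairs seen here as a replicate block, limma-voom called 2 rises (AXIN2, DKK3), 2 falls (DKK1, LGR4) and 9 further pathway genes. This fit called 1396 of all 13906 genes. On the same genes limma-voom without a block called 0, and the deposited DESeq2 test called 254 of 14063. The pairs were chosen after the data were seen and are not given by the design.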
